A study of Mus musculus with 6 samples.

Results

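The 10 genes named here are nucleolar factors that build ribosomes, together with the transcription factor gene Myc. All probe sets that the platform annotation assigns to exactly 1 gene symbol, that symbol being one of the 10, were taken. Of the 10 genes, 9 had such a probe set and Dkc1 had none and was dropped. The 9 members have 19 probe sets of the 22626 on each array, and all 9 were among the 8382 genes tested of 12393 named on the array. Expression was measured on 6 Affymetrix arrays, 1 for each line of embryonic mouse fibroblasts (MEFs), primary cells explanted from embryos. The 3 chromosomally unstable lines were 2 BubR1H/H lines, with the hypomorphic BubR1 allele and wild-type CDC20, and 1 CDC20AAA/AAA line, whose CDC20 allele the labels also call hypomorphic and whose BubR1 is wild type. The 3 chromosomally stable lines were 2 BubR1+/+ lines and 1 CDC20+/+ line, wild type at both genes. All were cultured alike for 2 passages and given no differing treatment. Numbers in the titles join each unstable line to 1 stable line, so that the BubR1 lines form pairs 9515 and 9938 and the CDC20 lines pair 10074. With 1 line of each CDC20 genotype, that genotype has no replicate. Whether each line came from an embryo of its own is not stated, so the p-values reflect only how far these lines spread, and the embryos' age is not given in the sources used here.

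Ribosome assembly begins in the nucleolus, where RNA polymerase I transcribes the long ribosomal RNA precursor. Small nucleolar RNA-protein particles then guide its chemical modification, those of the box C/D class adding methyl groups and those of the box H/ACA class forming pseudouridine, while further factors cleave and fold it into the small and large subunits. Myc is a basic helix-loop-helix transcription factor that binds DNA as a dimer with Max and is known for raising transcription of many of these genes in growing cells, fibroblasts included.

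The letters that Myc and Max prefer, the E-box CACGTG, were searched in the promoter windows of the members, since these genes are shown together for their link with Myc. RefSeq promoter windows of build GRCm38.p6, 300 bases long and lying mostly before the start site, were matched by symbol for 6 of the 9 members, namely Polr1a, Polr1b, Bysl, Ncl, Nop56 and Nop10. CACGTG, which reads the same on both strands, occurred in 0 of the 6 windows, against 7.15% of all 32851 windows. Related letters searched apart, CACATG or its reverse complement CATGTG, and CACGCG or its reverse complement CGCGTG, were each found in 2 of the 6 windows, against 14.2% and 9.27% of all windows. The 3 windows with such letters are printed 5′ to 3′ on the strand of the gene, with the matches in capitals. In Polr1a (chr6:71908803-71909102, plus strand) CACATG begins 16 bases into the transcript, in Bysl (chr17:47611443-47611742, minus strand) CACGCG begins at base -129, and in Nop10 (chr2:112261676-112261975, plus strand) CACATG begins at base -59 and CACGCG 25 bases into the transcript.
Polr1a: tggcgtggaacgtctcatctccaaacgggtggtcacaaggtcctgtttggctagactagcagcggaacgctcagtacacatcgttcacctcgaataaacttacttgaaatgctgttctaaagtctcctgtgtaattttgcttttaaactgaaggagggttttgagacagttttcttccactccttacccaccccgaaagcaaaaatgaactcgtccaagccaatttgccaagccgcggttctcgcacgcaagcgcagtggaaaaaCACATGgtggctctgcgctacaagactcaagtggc
Bysl: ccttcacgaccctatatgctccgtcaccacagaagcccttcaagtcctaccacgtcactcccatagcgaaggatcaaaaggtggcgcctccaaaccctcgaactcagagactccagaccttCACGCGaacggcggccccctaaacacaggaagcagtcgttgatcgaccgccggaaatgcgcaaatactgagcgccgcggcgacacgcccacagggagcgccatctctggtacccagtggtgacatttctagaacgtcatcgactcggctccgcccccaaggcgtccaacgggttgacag
Nop10: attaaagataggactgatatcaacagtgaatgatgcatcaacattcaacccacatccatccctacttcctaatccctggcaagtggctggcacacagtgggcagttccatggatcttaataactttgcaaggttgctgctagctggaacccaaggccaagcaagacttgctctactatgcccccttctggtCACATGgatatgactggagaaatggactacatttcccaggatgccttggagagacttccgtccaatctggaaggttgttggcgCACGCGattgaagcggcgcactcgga
Among genes of the 6 lists of ribosome assembly factors described further on, 19 of the 89 with a window held CACGTG (21.3%), against 825 of the 6838 tested genes with a window (12.1%). The shares of all windows were counted per window and not restricted to tested genes. With 6 windows, the members' counts are too few to be told apart from any of these shares. These matches describe letters only, and no binding was measured.

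The median log2 value of an array was 6.16 to 6.20, and 6 arrays are few, which limits all precision here. Bub1b, which encodes BubR1, was at 6.15, 6.43 and 7.00 in the unstable members of pairs 9515, 9938 and 10074, against 7.81, 8.51 and 7.61 in their stable partners. Cdc20 measured 10.74, 10.34 and 10.03 in the unstable lines in that order, against 10.85, 11.15 and 10.83 in the stable lines. Of 11 fibroblast markers, all reached a log2 value of 4 on every array. Of 15 macrophage and leukocyte markers 13 to 14 did so in the unstable and 14 in the stable lines, with Itgam the lowest on every array, so these cultures also carried leukocyte transcripts. Their median levels were 7.84, 10.15 and 9.02 in the unstable lines, against 8.43, 10.02 and 10.21 in the stable lines. Of 9 epithelial markers 2 to 4 reached that value on any array, and of 8 endothelial markers 1 to 2. Xist was at 10.70 and 11.16 in the unstable and stable line of pair 9938 and at most 2.94 elsewhere, whereas Eif2s3y, on the Y chromosome, was at 2.07 and 2.20 there and above 11 elsewhere, so pair 9938 also had another embryo sex than the other pairs.

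The comparison of unstable with stable lines asked which transcripts differ in chromosomally unstable cells. All 9 members had a lower mean in the unstable lines, where 52.1% of all tested genes did, with a median log2 difference of -0.28 against -0.0087 for all tested genes. The members were chosen with earlier results of these data known, so this excess cannot be read as an independent result. Polr1a was 1.42-fold, Polr1b 1.31-fold and Bysl 1.28-fold lower in the unstable lines, and the other 6 members were 1.03-fold to 1.22-fold lower. No member passed the test. In limma, 0 of the 9 had an adjusted p under 0.05, as had 0% of all genes in either direction, and each member had an adjusted p of 0.999. With an unadjusted p under 0.05 in this fit, which ignores the pairs, Polr1a and Bysl were lower and no member higher, beside 2.93% of all genes lower and 1.35% higher. Members lower in all 3 pairs numbered 4 of 9 (Polr1a, Bysl, Nop56 and Nop10), where 19.3% of all genes were. With each gene's brightest probe set, every unstable line lay below every stable line for Polr1a, Bysl and Nop56. These were 3 of the 9, where 6.41% of all genes showed this. Without the stable line of pair 9515 this held for 7 of the 9, where it held for 12.7% of all genes, and without both lines of that pair for 7, where it held for 19.2%.

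**Figure D1:**
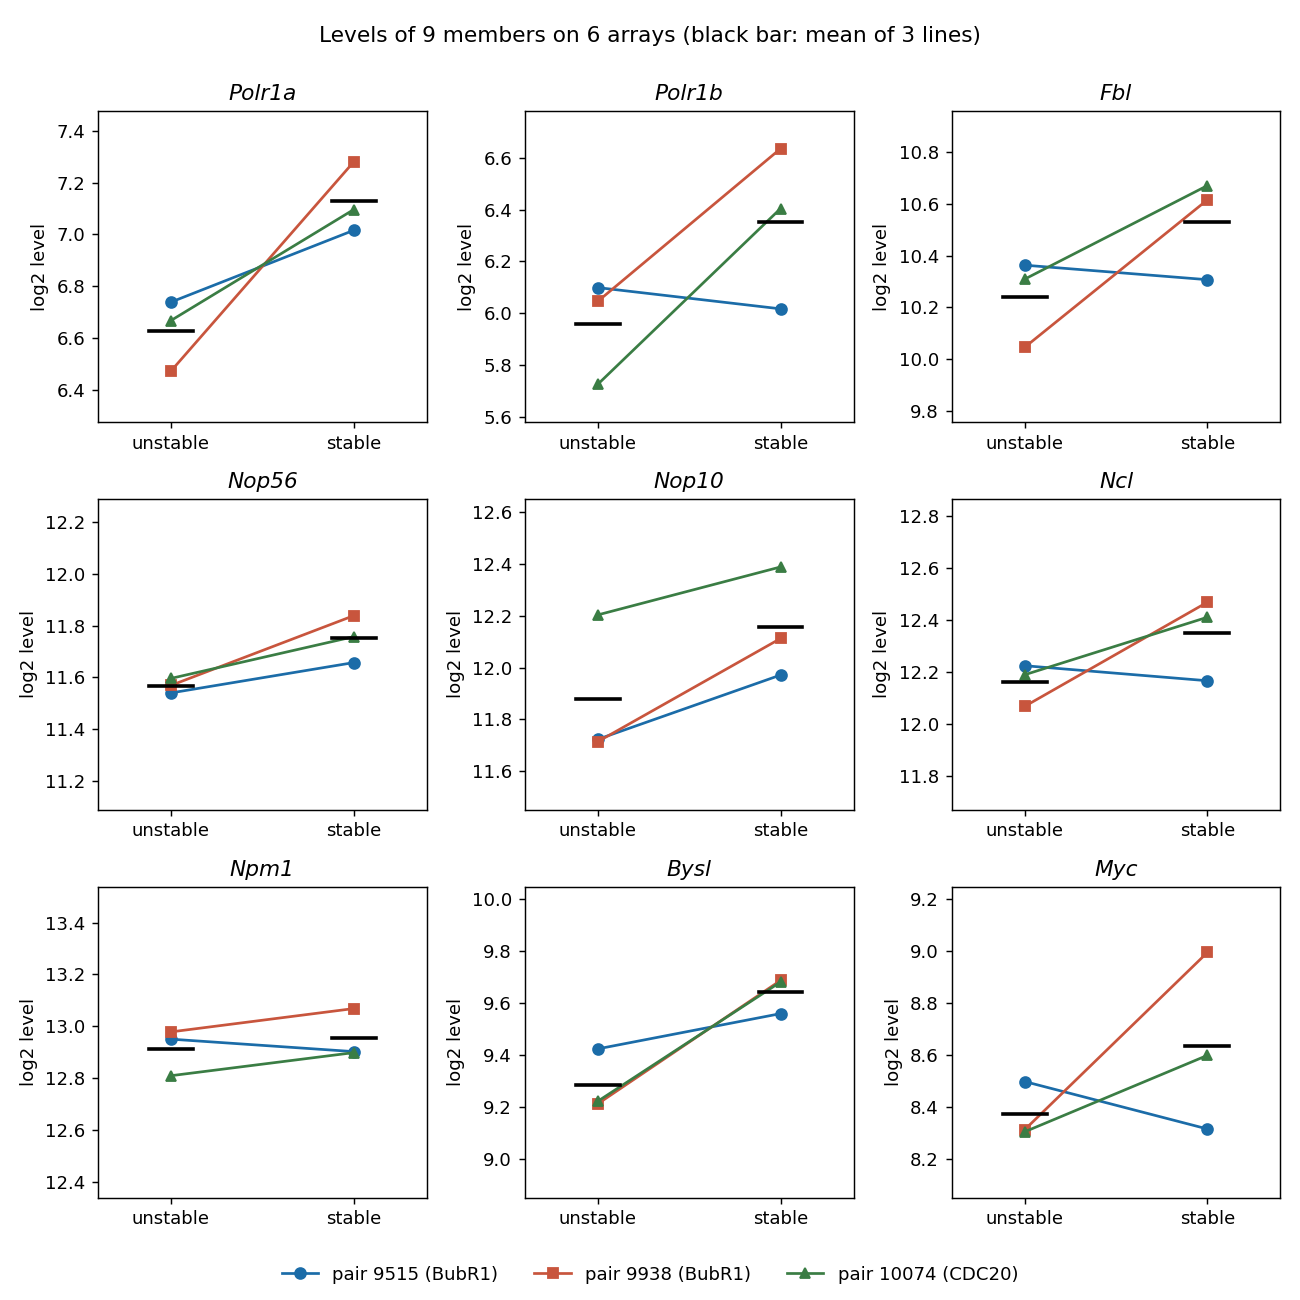
Log2 level of each member's brightest probe set (y axes, each spanning the same width of 1.2 log2 units) in the 3 unstable lines, left, and the 3 stable lines, right. Coloured lines join the lines of a pair and black bars are group means. The lines of pairs 9938 and 10074 slope upwards to the stable side for all 9 genes, while those of pair 9515 do so for 4.

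Polr1a encodes the largest subunit of RNA polymerase I, which with the second largest subunit forms the catalytic centre. It measured 6.74, 6.47 and 6.67 in the unstable members of pairs 9515, 9938 and 10074, against 7.02, 7.28 and 7.10 in their stable partners. Every unstable line was lower than every stable line. The group means were 6.63 ± 0.14 in unstable and 7.13 ± 0.14 in stable lines (SD, n = 3 each), a log2 difference of -0.50 with a 95% interval of -0.79 to -0.21 and an adjusted p of 0.999 by limma. Polr1b, which encodes the second largest subunit, measured 6.10, 6.05 and 5.73 in unstable lines, against 6.02, 6.64 and 6.40 in stable lines. The groups overlapped because the stable line of pair 9515 was lower than 2 of the unstable lines. Its mean difference was -0.40 (95% interval -0.86 to 0.07), or -0.25 without the stable line of pair 9938, -0.25 without both lines of pair 10074 and -0.63 without both lines of pair 9515.

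Fbl encodes fibrillarin, the methyltransferase of the box C/D particles, and Nop56 a core protein of the same particles. Fbl measured 10.36, 10.05 and 10.31 in the unstable lines, against 10.31, 10.62 and 10.67 in the stable lines, so that only pairs 9938 and 10074 were lower on the unstable side. Its mean difference was -0.29 (95% interval -0.64 to 0.06). Nop56 measured 11.54, 11.57 and 11.60 in unstable lines, against 11.66, 11.84 and 11.76 in stable lines. These groups did not overlap, but the whole range was narrow, and the mean difference was -0.18 (95% interval -0.40 to 0.04). Nop10, a small core protein of the box H/ACA particles and of telomerase, measured 11.72, 11.71 and 12.20 in unstable lines, against 11.97, 12.11 and 12.39 in stable lines. It was lower on the unstable side of every pair while the groups overlapped, because both lines of pair 10074 were above the other lines of their group. Its mean difference was -0.28 (95% interval -0.72 to 0.17), and with the pair number as a block -0.28 (95% interval -0.51 to -0.05) with an adjusted p of 0.348 by limma. Without the stable line of pair 10074 the mean difference was -0.16, and without the unstable line of that pair -0.44.

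Ncl and Npm1 encode nucleolin and nucleophosmin, abundant nucleolar proteins that bind ribosomal RNA precursors and chaperone their assembly. Ncl measured 12.22, 12.07 and 12.19 in unstable lines, against 12.17, 12.47 and 12.41 in stable lines, a mean difference of -0.19 (95% interval -0.47 to 0.09). Npm1 had the smallest difference of the members. It measured 12.95, 12.98 and 12.81 in unstable lines, against 12.90, 13.07 and 12.90 in stable lines, with a mean difference of -0.044 (95% interval -0.28 to 0.20). Both genes, like Fbl, have processed copies in mammalian genomes, and probes can take up signal from such copies. Whether the probes used here did so was not tested.

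Bysl encodes bystin, a factor of small-subunit maturation. It measured 9.42, 9.21 and 9.22 in the unstable lines, against 9.56, 9.69 and 9.68 in the stable lines. All unstable lines were below all stable lines, and its mean difference was -0.36 (95% interval -0.60 to -0.11), with an adjusted p of 0.999 by limma. Its second probe set gave the same separation, at 6.48, 6.53 and 6.25 in unstable lines, against 6.78, 6.64 and 6.66 in stable lines. Bysl was the only member with more than 1 probe set for which every probe set was lower in every pair.

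Myc had 1 probe set. It measured 8.497, 8.311 and 8.303 in the unstable lines, against 8.314, 8.995 and 8.598 in the stable lines. The 8.995 of the stable line of pair 9938 was the highest value, and the other 5 lines ranged between 8.303 and 8.598. In pair 9515 the unstable line was higher by 0.18, whereas the differences were -0.68 in pair 9938 and -0.30 in the CDC20 pair. The group means were 8.37 ± 0.11 in unstable and 8.64 ± 0.34 in stable lines (SD, n = 3 each), a difference of -0.27 (95% interval -0.72 to 0.19). It shrank to -0.086 when the stable line of pair 9938 was left out, and to -0.056 without both lines of that pair. With the stable line of pair 9515 left out it was -0.43, and without both lines of that pair -0.49.

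The members' differences were unlike in the 3 pairs. In pair 9515, 4 of the 9 were lower on the unstable side (49.5% of all genes), with a median of 0.048. In pair 9938 all 9 were lower (50.4% of all genes), with a median of -0.48, and in the CDC20 pair again all 9 (54.5% of all genes), with a median of -0.30. Without regard to sign, the median size of a member's difference was 0.12, 0.48 and 0.30 in pairs 9515, 9938 and 10074, against 0.12, 0.17 and 0.16 for all tested genes. Without pair 9938 the members' median difference of group means was -0.15, and without pair 9515 it was -0.47. The stable line of pair 9938 had the highest value of the 6 arrays for 7 of the 9 members and that of pair 10074 for Fbl and Nop10, whereas the stable line of pair 9938 was highest for 20.0% of all tested genes. Proliferation markers were lower too. All 18 tested, among them the replication helicase gene Mcm5 and the mitotic transcription factor gene Foxm1, were lower on the unstable side of every pair. Of all tested genes 19.3% were. All 18 were also highest in the stable line of pair 9938. Their within-pair medians were -0.22, -0.56 and -0.82 for pairs 9515, 9938 and 10074. Macrophage markers had medians of -0.23, 0.16 and -1.20 in that order. The part of either in the members' differences was not tested, and sex, pair and line cannot be told apart here.

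Taken within the BubR1 lines alone, the comparison of BubR1H/H with BubR1+/+ asked what accompanies the hypomorphic allele. All 9 members had a lower mean in the 2 BubR1H/H lines, although 5 of the 9 were higher on the unstable side of pair 9515. The median of this comparison over all tested genes was -5e-04, and the share of them with a lower mean was not counted. The log2 differences were -0.54 (SE 0.17) for Polr1a, -0.32 (SE 0.11) for Nop10, -0.31 (SE 0.13) for Bysl and -0.25 (SE 0.28) for Myc, and the others lay between -0.26 and -0.021. None passed limma with 4 groups, where each adjusted p was 1 and 0% of all genes passed. With an unadjusted p under 0.05, Polr1a and Nop10 were lower and no member higher, beside 1.67% of genes lower and 1.48% higher. Without the stable line of pair 9938, Polr1b, Npm1 and Myc were higher in BubR1H/H lines, by 0.056, 0.062 and 0.090. The BubR1 effect minus the CDC20 effect was fitted in the same model. Each CDC20 genotype had 1 line, so a gene's own spread comes from the 4 BubR1 lines alone. The standard errors, moderated by limma over all genes tested, assume that CDC20 lines vary alike. This difference passed for 0 of the 9 members and 0% of all genes by limma, with differences from -0.14 for Nop10 to 0.42 for Polr1b (SE 0.43). At an unadjusted p under 0.05 this contrast called no member, beside 0.799% of all genes lower and 0.787% higher. For Myc its 95% interval ran from -1.34 to 1.43.

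Probe sets of the same gene did not always give the same picture. Over the 19 probe sets, all had a lower mean in unstable lines (51.8% of all probe sets tested), 9 were lower in every pair (18.3%) and 6 had groups that did not overlap (6.26%). The 4 probe sets of Ncl differed most, with mean differences from -0.52 to -0.10. The dimmest of them measured 9.41, 9.38 and 9.21 in unstable lines, against 10.06, 9.86 and 9.62 in stable lines, and its groups did not overlap. For that probe set the pair 9515 difference was -0.66, against 0.058 for the brightest Ncl probe set. The 3 probe sets of Polr1a gave -0.50, -0.19 and -0.19, and only the brightest had groups that did not overlap. With the mean of its probe sets, the Polr1a difference was -0.30. In pair 9515 the second Polr1a probe set was higher on the unstable side, at 6.71 against 6.41, although the first was lower. The 2 probe sets of Fbl gave -0.29 and -0.30, those of Nop56 -0.18 and -0.20, those of Npm1 -0.044 and -0.096, and those of Nop10 -0.28 and -0.046. For the dimmer Nop56 probe set the groups overlapped. In 2 of the 19, the dimmest of Polr1a and the dimmer of Nop10, the unstable line was lower in both BubR1 pairs and higher in the CDC20 pair, as in 9.43% of all probe sets tested.

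**Figure D2:**
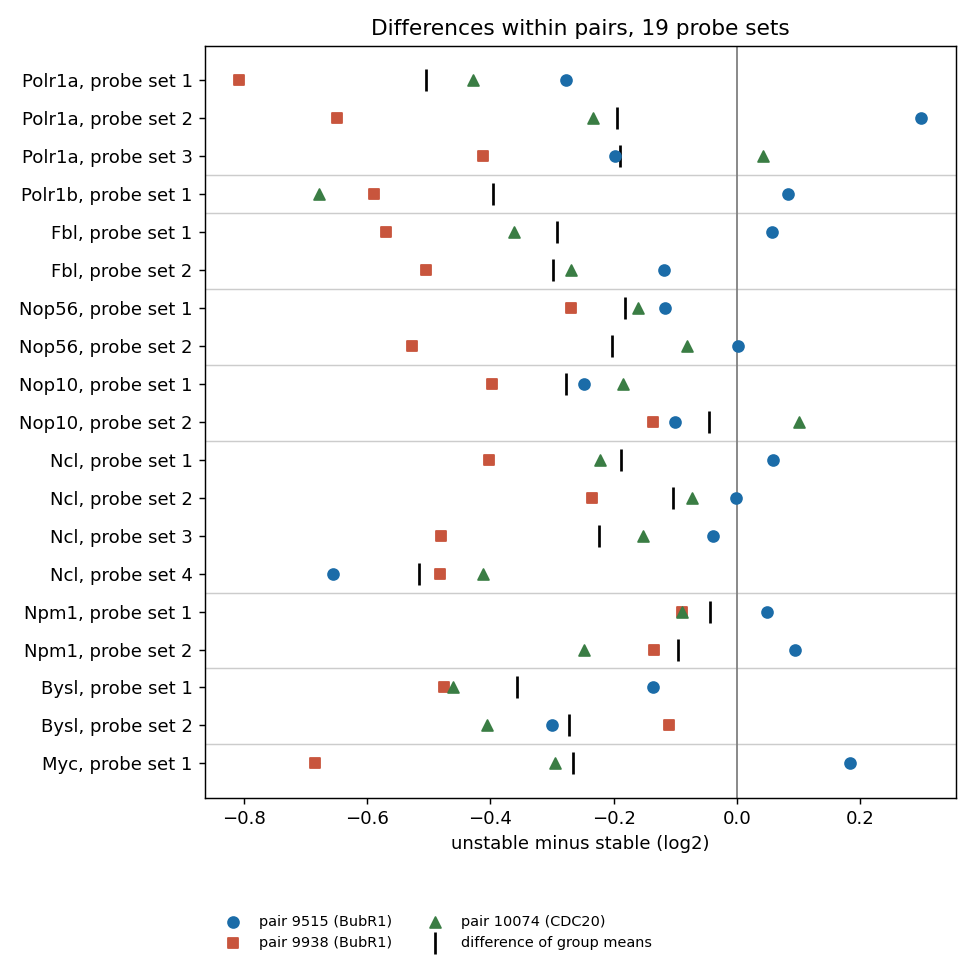
Unstable minus stable log2 difference (x axis) of each of the 19 probe sets of the 9 members, numbered from the brightest within a gene. Coloured symbols are the 3 pairs and black ticks the difference of group means, all 19 of which lie below 0, while symbols of pair 9515 lie on both sides.

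Other factors of the pathway, from lists written out by role, were mostly lower as well, and 0 of them passed limma in either direction. The lists, like the members, were chosen with earlier results of these data known, so their counts are no independent result either. Pooled over 6 lists, 92 of 101 tested factors that are not members had a lower mean in unstable lines, with a median of -0.14. Of all tested genes 52.1% had a lower mean. Of the 101, 45 were lower in all 3 pairs and 31 had groups that did not overlap, beside 19.3% and 6.41% of all tested genes. In pair 9515 62 of the 101 were lower, in pair 9938 93 and in the CDC20 pair 71, beside 49.5%, 50.4% and 54.5% of all tested genes.

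Of 13 RNA polymerase I subunits and initiation factors, 11 were lower, beside 52.1% of all tested genes, with a median of -0.077. Polr1a and Polr1b had the lowest differences of the 13. Next came Polr1e at -0.14 (SE 0.10) and Znrd1 at -0.11 (SE 0.10), both encoding subunits. Ubtf, which binds the ribosomal DNA promoter, was at -0.10 and Rrn3, which brings the polymerase there, at -0.046. Ttf1, a termination factor, was higher by 0.23 (SE 0.13) and was higher in all 3 pairs.

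Of the 8 box C/D proteins and assembly factors, the members Fbl and Nop56 included, all were lower, beside 52.1% of all tested genes, with a median of -0.28. The AAA+ ATPase genes Ruvbl2 and Ruvbl1, which help to assemble these particles, were at -0.32 (SE 0.13) and -0.29 (SE 0.13), and Rrp9, which binds the U3 particle, at -0.26 (SE 0.12). All 4 box H/ACA genes, the member Nop10 included, were lower, with a median of -0.29. The core protein genes Gar1 and Nhp2 were at -0.33 (SE 0.16) and -0.31 (SE 0.12), and no unstable line reached any stable line in Nhp2. Naf1, an assembly factor, was at -0.11 (SE 0.15).

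Of 11 nucleolar protein genes, the members Ncl and Npm1 included, all were lower, beside 52.1% of all tested genes, with a median of -0.10. Rrp1b, Tcof1 and Mybbp1a were at -0.44 (SE 0.20), -0.43 (SE 0.20) and -0.27 (SE 0.095), Tcof1 encoding treacle, which acts with RNA polymerase I. Of 35 small-subunit factors, the member Bysl included, 34 were lower, with a median of -0.15. Of these factors 15, Bysl among them, had groups that did not overlap, beside 6.41% of all tested genes. Mphosph10 and Imp4, which act together on the U3 particle, were at -0.27 (SE 0.079) and -0.25 (SE 0.081), and Heatr1, needed for transcription and processing of the precursor, at -0.34 (SE 0.12). Of 38 large-subunit factors 32 were lower, with a median of -0.14, and 12 had groups that did not overlap, beside 52.1% and 6.41% of all tested genes. Among them Noc3l was at -0.30 (SE 0.088), Ppan at -0.34 (SE 0.11) and Bop1, a partner of Pes1 in large-subunit processing, at -0.24 (SE 0.081).

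**Figure D3:**
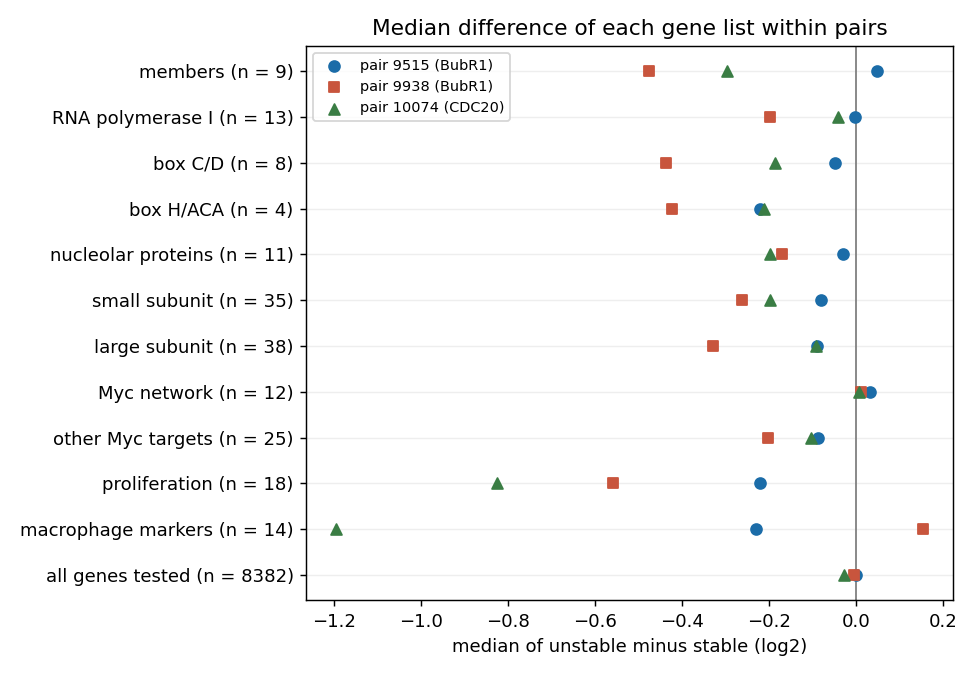
Median unstable minus stable log2 difference (x axis) of the members, of each gene list and of all tested genes within the 3 pairs (symbols), with the number of tested genes. Members are counted in their lists too. The medians of the 6 assembly lists lie below 0 in every pair, between -0.44 and -0.17 in pair 9938, between -0.21 and -0.041 in pair 10074 and between -0.22 and -0.0020 in pair 9515, and the proliferation list also lies below 0 in every pair.

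Among the partners of Myc, the values went in both directions. Of 15 genes of the Myc, Max and Mlx network 12 passed the filter on low values, while Mycn, Mxd1 and Mlxipl did not. Of the 12, 5 had a lower and 7 a higher mean in unstable lines, with a median of 0.026, and 0 passed limma in either direction. Mxd3, a Max partner that opposes Myc on DNA, measured 8.012, 7.995 and 7.370 in unstable lines, against 8.279, 8.308 and 8.220 in stable lines. These groups did not overlap, and the mean difference was -0.48 (SE 0.19). Mycl, a Myc relative, measured 5.86, 6.34 and 6.22 in unstable lines, against 5.36, 5.85 and 5.86 in stable lines. It was higher on the unstable side of every pair, with a mean difference of 0.45 (SE 0.19), while the groups overlapped. Zbtb17, a zinc finger protein through which Myc represses genes, was at -0.22 (SE 0.11) with no overlap between groups. Max, the shared partner, was at -0.053 (SE 0.091), and the Mlx gene at -0.17 (SE 0.12). The Max partners Mxi1, Mxd4 and Mnt were at 0.19 (SE 0.12), 0.12 (SE 0.22) and 0.096 (SE 0.11). Mlxip was at 0.16 (SE 0.12), Mga at 0.0017 (SE 0.17) and the coactivator gene Trrap at 0.051 (SE 0.12).

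**Figure D4:**
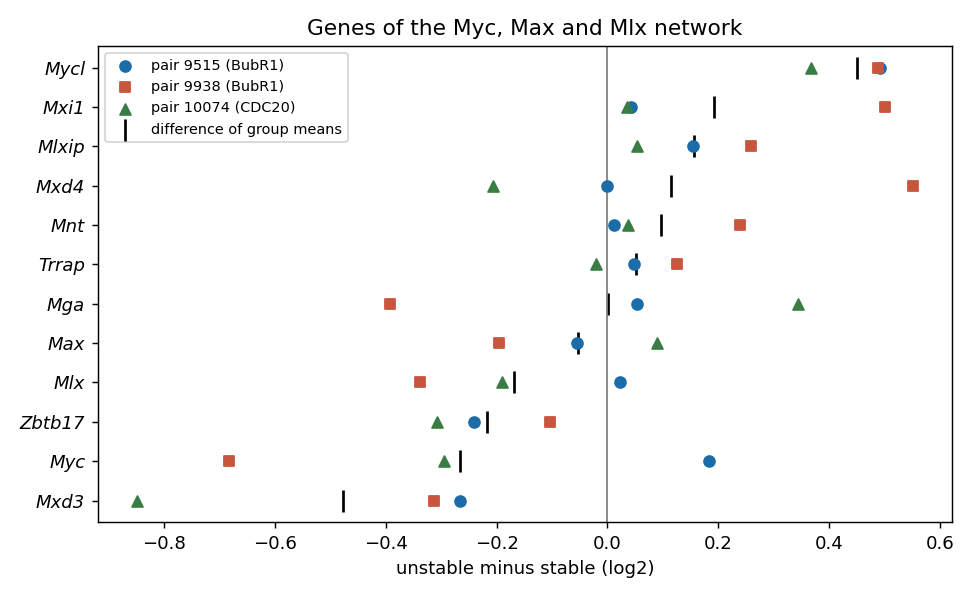
Unstable minus stable log2 difference (x axis) of the 12 tested genes of the Myc, Max and Mlx network, ordered by the difference of group means (black ticks), with the 3 pairs as coloured symbols. Mxd3 at the bottom and Mycl at the top lie on 1 side of 0 in all pairs, while Myc lies on both sides.

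Of 25 genes often cited as Myc targets outside ribosome assembly, 22 were lower in unstable lines, with a median of -0.16, and 13 were lower in all 3 pairs, beside 52.1% and 19.3% of all tested genes. Cdc25a, a phosphatase that drives S-phase entry, was at -0.37 (SE 0.084), the mitochondrial chaperonin gene Hspd1 at -0.26 (SE 0.086) and Pcna, the replication clamp, at -0.29 (SE 0.11). None of the 25 passed limma, and 4 were lower at an unadjusted p under 0.05, beside 2.93% of all tested genes.

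Likeness of pattern was measured as the root mean square difference between profiles over the 6 arrays, each centred on its gene's mean, and is a description with no test. Closest to Myc among 8381 genes were Nsg1 at 0.050, Samd11 at 0.071, Rfc3 at 0.071, Crlf3 at 0.071 and Gpn3 at 0.076. Of the members, Polr1b was closest to Myc, at 0.12 and rank 80, followed by Ncl at 0.14 and rank 130, and Nop10 was farthest, at 0.29 and rank 3910. Closest to Polr1a were Wdr4 at 0.077, Gpatch4 at 0.099 and Usp2 at 0.10, followed at rank 4 by Bysl at 0.11.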

How the data were processed

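RNA of 6 fibroblast lines was amplified, labelled with biotin and hybridised to Affymetrix arrays, per the labels' protocols. The authors' software was GCRMA 2.28.0 under R 2.15.3, per the submitters' processing notes, a method that corrects background, normalizes between arrays and summarizes probe sets. The deposited values were taken to be log2 values, as GCRMA gives, and were used unchanged, 1 column per line. Such normalization removes overall brightness differences between arrays, so a change shared by most transcripts would not be seen.

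The platform annotation gave exactly 1 symbol for 20380 of 22626 probe sets. Each gene was represented by its probe set of highest mean, and 8382 genes with a log2 value of 4 or more on 3 or more arrays were tested. Linear models were fitted in R 4.3.3 by lmFit and eBayes of limma 3.58.1, with two-sided tests, Benjamini-Hochberg adjustment over all genes tested and a threshold of 0.05, without a block, and with 4 groups for the BubR1 contrast and the difference of effects. Intervals use limma's moderated standard errors. An exact permutation test of 3 lines against 3 cannot go below 0.1 and was not used. The fit was tested on simulated data with changes larger than any mean difference of the members. How well it recovers changes of the members' size was not tested.

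Titles give the pair numbers. Deviations from group means correlated at 0.812, 0.681 and 0.602 across genes for same-numbered lines of pairs 9515, 9938 and 10074, so the numbers were taken as pairs and a block by pair number was run as an alternative. Of other alternatives, low-value filters, probe set choice, renormalization, prior, array weights and left-out lines were tried.

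Members and lists were chosen with earlier results of these data known. Genes named beside the members were the up to 3 of each list with the smallest unadjusted p, every tested gene of the Myc network and the genes of most similar pattern. Ubtf and Rrn3 were named outside that rule, for their roles, after their values were seen. The lists of fibroblast, macrophage, epithelial and endothelial markers describe the cultures.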

Additional observations from a re-analysis of the deposited data

Results flagged for a closer look

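In 2 of the 19 probe sets the unstable line was lower in both BubR1 pairs and higher in the CDC20 pair, a pattern that 9.43% of all tested probe sets show. The dimmest Polr1a probe set had differences of -0.20 and -0.41 in pairs 9515 and 9938 and 0.042 in the CDC20 pair, and its BubR1 effect minus its CDC20 effect was -0.35 (SE 0.28, adjusted p = 1 by limma). The dimmer Nop10 probe set had -0.10 and -0.14 in the BubR1 pairs and 0.10 in the CDC20 pair, and its difference between effects was -0.22 (SE 0.18, adjusted p = 1 by limma). Each CDC20 genotype is 1 line, so a probe set's own spread comes from the BubR1 lines alone. These errors, moderated by limma over all probe sets tested, assume that CDC20 lines vary alike. Neither difference passed that test, and the brighter probe sets of both genes were lower in the CDC20 pair as well.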

How the results depend on the processing

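No gene passed the threshold in any comparison under any alternative that was run. The smallest adjusted p for unstable against stable lines was 0.208, in the blocked fit without pair 9938. With the pair number as a replicate block 0 genes were lower and 0 higher, with 580 and 439 at an unadjusted p under 0.05, against 246 and 113 without the block, and the members' median stayed at -0.28. The block changed no call at the adjusted threshold. With it the unadjusted p by limma was under 0.05 for Polr1a (0.011), Bysl (0.020) and Nop10 (0.026), all lower, and for no other member. Of 189 alternative values of the 9 members' differences, 2 changed sign, both for Npm1, whose values with lines or pairs left out ran from -0.089 to 0.012. The members' median ran from -0.47 to -0.15 with lines or pairs left out, and 8 or 9 members were lower. For the left-out lines and pairs Fbl ran from -0.47 to -0.15 and Ncl from -0.31 to -0.082. Counts of members with separate groups, added after seeing the data, ran from 3 to 7. The share of all genes with such separation rose as well, from 6.41% with all lines to between 9.33% and 19.2% with lines or pairs left out. In BubR1 lines the left-out fits gave -0.56 to 0.056 for Polr1b, -0.10 to 0.062 for Npm1 and -0.59 to 0.090 for Myc. For the BubR1 effect minus the CDC20 effect they gave -0.25 to 0.019 for Polr1a, -0.054 to 0.26 for Fbl, -0.10 to 0.20 for Ncl, -0.015 to 0.15 for Npm1, -0.12 to 0.059 for Nop56 and -0.30 to 0.39 for Myc, and the mean of the Ncl probe sets gave -0.065. The cause was not tested. In place of CACGTG in 0 of 6 promoter windows, CACATG or CATGTG gave 2 and CACGCG or CGCGTG gave 2. The stricter filter on low values left no endothelial marker. Fits that left no residual degrees of freedom were not run, and the BubR1 effect minus the CDC20 effect was not fitted where a CDC20 line was left out.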

Other observations

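The 19 tested assembly genes whose promoter window held CACGTG had a median unstable minus stable log2 difference of -0.15, and all 19 were lower. The 70 without these letters, among them all 6 members with a window, had a median of -0.15, and 64 of the 70 were lower. Of all tested genes 52.1% had a lower mean. These groups were formed after the differences were known and were not tested.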
